A study of Mus musculus with 16 samples.

Results

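The 49 genes described here encode proteins of the cell division cycle and of DNA replication, and they were followed across 16 left ventricles of mice. They are the listed genes whose name, or whose older name such as Cdc2a for Cdk1, stands on a probe of the array, and 1 probe per gene was used, the one with the highest mean signal over the 16 arrays. They make up 49 of the 27670 genes measured. All mice came from a line backcrossed to C57BL/6 N for 7 generations. NOS3-TG mice overexpress nitric oxide synthase 3, an enzyme best known from endothelial cells that produces nitric oxide. The transgene is driven by the alpha-MHC promoter (alpha-myosin heavy chain), which acts in cardiomyocytes, and WT mice are their wild-type littermates. TAC is transverse aortic constriction, an operation that narrows the aorta and makes the left ventricle work against a higher pressure. The groups were NOS3-TG mice 10 weeks after TAC, WT mice 10 weeks after TAC, NOS3-TG mice at baseline and WT mice at baseline, the last 2 without the constriction. The labels call the baseline mice control-intact and name no sham operation, so the operation and the pressure load cannot be told apart. Each group held 4 arrays from 2 males and 2 females, matched for age and weight, and replicates 1 and 3 are males while replicates 2 and 4 are females. The ages were not given in the sources used here.

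A dividing cell passes through G1, when D- and E-type cyclins with their kinases release the E2F transcription factors, through S phase, when licensed origins fire and DNA is copied, and through G2 into mitosis, which cyclin B with Cdk1, the Aurora kinases and Plk1 drive. Many genes of S phase are switched on by E2F factors, while many genes of G2 and mitosis carry a CHR element in the promoter and are switched on later with the help of Foxm1. Most cardiomyocytes of the adult mouse have left the cycle, and fibroblasts, endothelial cells and macrophages of the heart can divide. In RNA of whole ventricle, more cells of a dividing type and more RNA per cell cannot be told apart.

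Levels are given as log2 of the spot intensity after scaling of each array to its 75th percentile, so that a step of 1 is a 2-fold difference, and they do not rank genes against each other. Over the arrays, a median of 52.5% of the probes was well above background, with the lowest at 44.5% (NOS3-TG baseline replicate 2) and the highest at 68.0% (NOS3-TG TAC replicate 4). None of the 10 cardiomyocyte markers, Myh6 and Tnnt2 among them, was below background on all arrays. Nos3 itself lay between 17.20 and 18.28 on the 8 NOS3-TG arrays, against 11.22 to 12.11 on the 8 WT arrays. Of the 49 genes, 46 were well above background on at least 4 arrays, 30 on all 16, and none on no array. Some were dim: 2 genes were above background on no NOS3-TG TAC array, 1 on no WT TAC array, 5 on no NOS3-TG baseline array and 7 on no WT baseline array. Such a gene is compared only by a lower bound of its fold. The animals of a group are separate biological repeats per the labels, and 4 arrays a group limit the precision.

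Promoter sequences were taken from RefSeq (GRCm38.p6), from 250 bases before to 50 bases after the transcript start, and 40 of the 49 genes had one. Cdk1 and Bub1 are shown as the called genes with the largest fitted log2 difference after TAC in WT mice among the mitotic kinases and the spindle checkpoint genes, both of which were dim at WT baseline, so that their folds are known only as lower bounds. They are given together with Mcm5 as a licensing gene and Cenpf as the gene that fell, which were added after their values were seen. Capitals mark TTTGAA (the CHR element), CCAAT and the E2F sites TTTCCCGC, TTTGGCGC, TTTCGCGC and TTTGCCGC, each on either strand. Where 2 E2F sites overlap, both lie in 1 run of capitals, as in Mcm5.
Cdk1 (cyclin-dependent kinase of mitosis; GRCm38.p6, chr10:69352863-69353162, minus strand): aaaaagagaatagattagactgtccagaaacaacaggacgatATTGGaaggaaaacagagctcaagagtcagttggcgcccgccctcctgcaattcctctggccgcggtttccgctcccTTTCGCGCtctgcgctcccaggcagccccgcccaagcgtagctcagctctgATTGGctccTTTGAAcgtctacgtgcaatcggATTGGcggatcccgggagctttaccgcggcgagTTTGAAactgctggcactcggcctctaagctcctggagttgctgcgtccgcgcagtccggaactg
Bub1 (spindle checkpoint kinase; GRCm38.p6, chr2:127831810-127832109, minus strand): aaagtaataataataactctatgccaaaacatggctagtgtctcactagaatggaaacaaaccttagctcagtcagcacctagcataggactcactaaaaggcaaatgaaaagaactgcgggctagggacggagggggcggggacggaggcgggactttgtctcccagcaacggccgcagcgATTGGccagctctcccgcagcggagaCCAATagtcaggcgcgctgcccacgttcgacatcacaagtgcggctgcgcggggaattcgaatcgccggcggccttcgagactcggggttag
Mcm5 (subunit of the replicative helicase; GRCm38.p6, chr8:75109259-75109558, plus strand): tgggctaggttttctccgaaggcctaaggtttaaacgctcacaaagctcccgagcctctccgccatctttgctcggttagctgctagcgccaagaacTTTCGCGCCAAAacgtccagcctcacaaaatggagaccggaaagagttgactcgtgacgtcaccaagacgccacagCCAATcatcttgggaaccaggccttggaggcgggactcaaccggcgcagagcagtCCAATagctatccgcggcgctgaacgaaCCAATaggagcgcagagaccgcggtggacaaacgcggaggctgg
Cenpf (centromere protein F; GRCm38.p6, chr1:189688037-189688336, minus strand): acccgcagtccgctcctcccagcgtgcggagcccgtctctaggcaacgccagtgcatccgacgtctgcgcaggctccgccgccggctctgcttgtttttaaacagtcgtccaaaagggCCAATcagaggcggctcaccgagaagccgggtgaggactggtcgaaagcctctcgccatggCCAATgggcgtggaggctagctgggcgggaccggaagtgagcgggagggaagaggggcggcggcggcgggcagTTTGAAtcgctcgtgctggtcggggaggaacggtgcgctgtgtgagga

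Counting the transcript start as base 1 and the base before it as -1, the Cdk1 promoter held TTTGAA at -71 and at -15, an E2F site at -131 and 3 CCAAT boxes. The Bub1 promoter held 2 CCAAT boxes and neither of the other motifs. In the Mcm5 promoter the overlapping E2F sites began at -153 and -149, and in the Cenpf promoter TTTGAA began at 3, just past the start. TTTGAA stood in 21 of the 40 promoters (52.5%), against 20.2% of the 27025 gene promoters in the table. Within the 250 bases before the start alone it stood in 27.5% of the 40 promoters and in 18.3% of all. CCAAT stood in 29 of the 40 (72.5%), against 41.1% of all, and an E2F site in 7 of the 40 (17.5%), against 2.61% of all. Of the 7 licensing genes with a promoter, 6 held an E2F site and 1 held TTTGAA, while of the 6 mitotic cyclins and kinases 5 held TTTGAA and 1 held an E2F site. In the 250 bases before the start, 4 of the 7 licensing genes held an E2F site and 2 of the 6 mitotic cyclins and kinases held TTTGAA. Of the 5 fork and deoxynucleotide genes, 0 held an E2F site and 0 held TTTGAA. Of the 21 genes with TTTGAA, 15 rose after TAC in WT mice, where 3.99% of all genes rose, and their median log2 difference was 1.89. Of the 19 without it 4 rose, with a median of 0.70. Of the 7 genes with an E2F site, 1 rose, and their median was 0.66. These splits used the whole window. They were not made for the 250 bases before the start alone, where 11 of the 40 held TTTGAA. These counts describe letters in a window, not binding of a factor, and role and motif overlap.

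TAC in WT mice was accompanied by higher levels of the genes of mitosis, and much less of the genes of G1 and replication. By limma with Benjamini-Hochberg adjustment over all 27670 genes, 25 of the 49 genes rose and 1, Cenpf, fell in WT TAC ventricles against WT baseline ventricles, where 3.99% of all genes rose and 6.42% fell. The 30 genes of G2, mitosis and cytokinesis held 23 of the rises and the fall, and the 19 genes of G1 and replication held 2 rises. The median log2 difference was 1.94 in the 30 mitotic genes, 0.57 in the other 19 and 1.54 in all 49, against 0.04 over all genes. With each gene that was dim in a WT group set at its bound, or at no change where it had none, the median of the 49 was 1.05. All 7 such genes were mitotic. With bounds, the median was 2.00 in the cyclins and mitotic kinases and 1.67 in the checkpoint and anaphase-promoting complex genes. It was 1.66 in the chromosome structure and proliferation antigen genes and 1.52 in the spindle motors and microtubule proteins. All 4 WT TAC arrays lay above all 4 WT baseline arrays in 32 of the 49 genes, as in 6.08% of all genes. The baseline arrays lay on slides 1 and 4 and the TAC arrays on slides 2 and 3, so slide and TAC cannot be told apart. Slide 3 was scanned on a later day than the others. With the scan day as a block, 12 of the 49 genes passed: Cenpf, lower, and Plk1, Bub1, Cdk1, Ect2, Birc5, Cenpe, Ccnb2, Tpx2, Kif11, Mki67 and Prc1, higher. The other 14 rises among the 49 genes were not called in that fit. With normexp background correction 17 passed, 16 of them higher, with a median of 0.69, and Aurkb, Cdca3, Bub1, Nusap1, Top2a, Racgap1, Foxm1, Kif11 and Ube2c lost their call. The median over the 49 genes was 1.11 for the WT TAC arrays of the first scan day and 1.82 for those of the second, each against all WT baseline arrays, with 38 and 48 of the 49 genes higher.

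**Figure D1:**
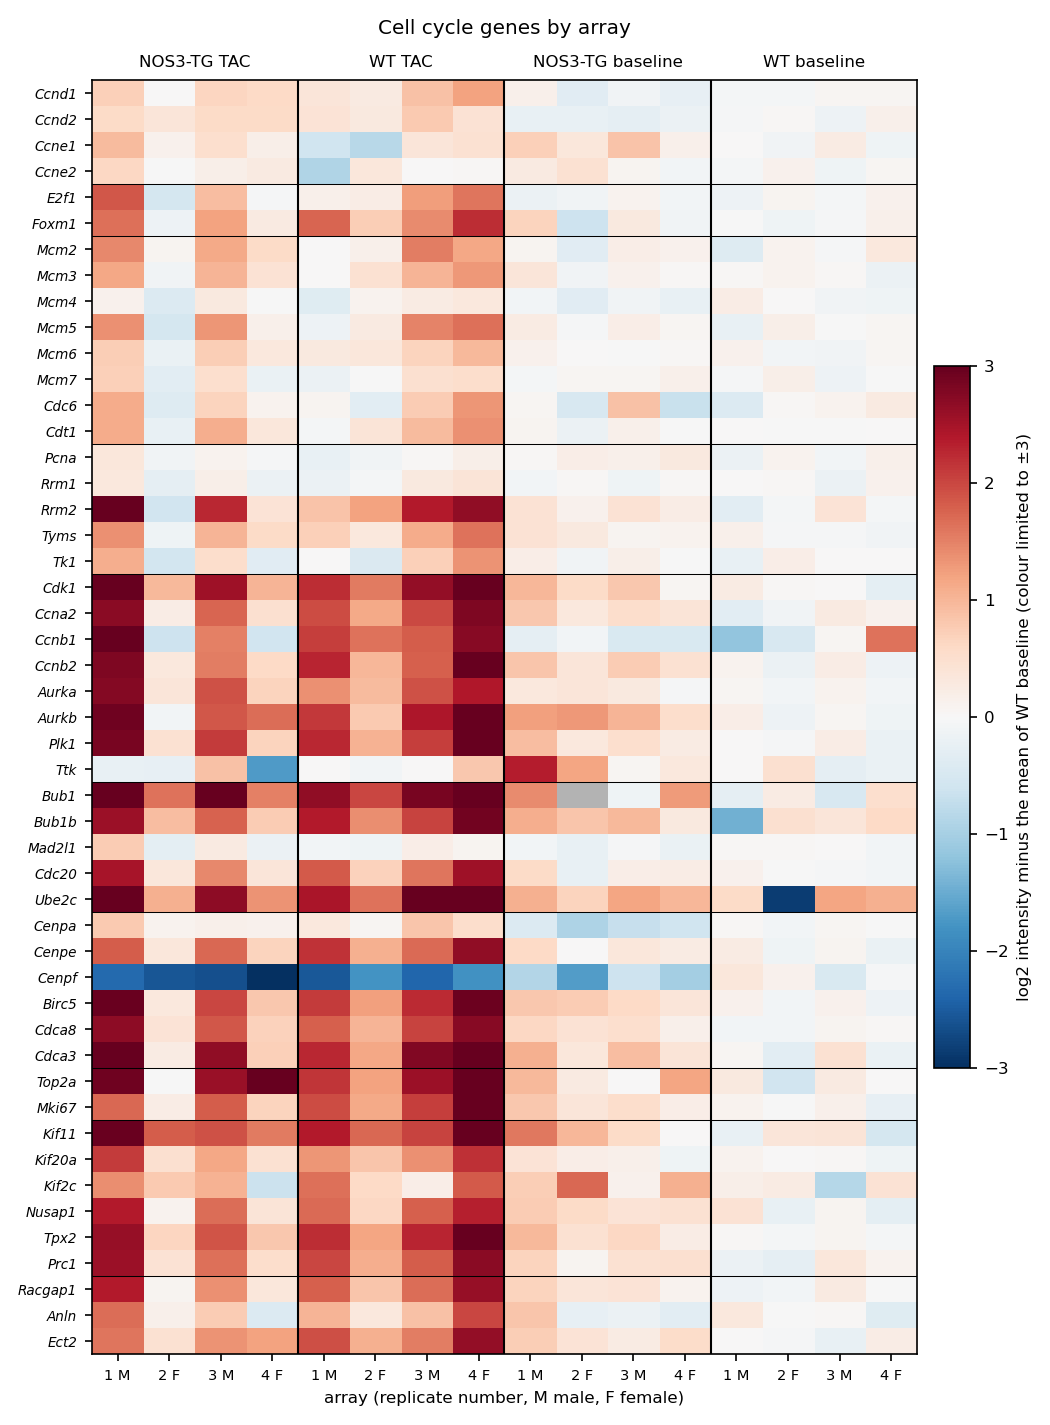
Level of each of the 49 genes (down the page, grouped by role, black lines between roles) on each of the 16 arrays, as log2 intensity minus the mean of the WT baseline arrays, coloured from blue (lower) to red (higher) and limited to ±3. Most mitotic genes in the lower part are red on the 4 WT TAC arrays and on the 2 male NOS3-TG TAC arrays, Mad2l1 and Ttk are paler, Cenpf is blue on all 8 TAC arrays, and the grey cell is Bub1 on NOS3-TG baseline replicate 2, whose spot was an outlier.

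Among the cyclins of G1 and of the entry into S phase, 1 of 4 rose in WT TAC ventricles. Ccnd2, a D-type cyclin that activates Cdk4 and Cdk6, measured 15.31, 15.21, 15.68 and 15.33 in WT TAC, against 14.87, 14.95, 14.75 and 15.05 in WT baseline. The groups did not overlap, the log2 difference was 0.48 ± 0.11 (SE), and the adjusted p of 0.0168 by limma became 0.0623 without WT baseline replicate 3. Its 2 other probes rose too, by 0.58 and 0.47 (adjusted p by limma 0.0124 and 0.0224). Ccnd1, the other D-type cyclin on the list, measured 12.69, 12.60, 13.22 and 13.54 in WT TAC, against 12.28, 12.27, 12.40 and 12.38 in WT baseline. Its groups did not overlap either, but its log2 difference of 0.68 ± 0.21 did not pass (adjusted p by limma 0.0542). Ccne1 and Ccne2, the E-type cyclins that activate Cdk2, had log2 differences of -0.16 and -0.12, and a further Ccne2 probe had one of 0.46, none of which passed.

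Foxm1, the transcription factor of G2 and mitotic genes, measured 8.59, 7.58, 8.26 and 9.05 in WT TAC ventricles, against 6.82, 6.71, 6.81 and 6.98 in WT baseline ventricles. It rose by 1.54 ± 0.34 on the log2 scale (adjusted p by limma 0.0136), its groups did not overlap, and the call was lost with the scan day as a block and with normexp. E2f1, an activator of S-phase genes, measured 6.57, 6.63, 7.67 and 8.01 in WT TAC, against 6.25, 6.49, 6.36 and 6.54 in WT baseline. Every WT TAC value again lay above every baseline value, by little on replicates 1 and 2 and by over 1 on replicates 3 and 4, and the difference did not pass (0.81 ± 0.43, adjusted p by limma 0.306).

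None of the 8 licensing genes passed, although all 8 had a positive log2 difference in WT mice, between 0.07 and 0.81 with a median of 0.62. Mcm2 to Mcm7 are the 6 subunits of the helicase that is loaded at origins, and Cdc6 and Cdt1 load it. Mcm5 measured 9.32, 9.74, 10.97 and 11.13 in WT TAC ventricles, against 9.26, 9.65, 9.46 and 9.55 in WT baseline ventricles. Mcm2 measured 9.02, 9.17, 10.56 and 10.18 in WT TAC, against 8.63, 9.12, 8.98 and 9.34 in WT baseline. In both genes WT TAC replicates 3 and 4, from slide 3, lay well above baseline, and replicates 1 and 2, from slide 2, lay within its range, apart from Mcm5 on replicate 2, just above it. Over the 8 licensing genes the array medians relative to WT baseline were -0.02, 0.20, 0.86 and 1.23 on WT TAC replicates 1, 2, 3 and 4. Mcm6 was the licensing gene whose WT TAC arrays all lay above its WT baseline arrays (0.57 ± 0.20, adjusted p by limma 0.0892).

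At the replication fork and in the supply of deoxynucleotides, none of 5 genes passed. Rrm2, the small subunit of ribonucleotide reductase, measured 7.72, 8.06, 9.23 and 9.52 in WT TAC ventricles, against 6.54, 6.81, 7.27 and 6.80 in WT baseline ventricles. The groups did not overlap, but the log2 difference of 1.78 ± 0.64 did not pass (adjusted p by limma 0.105). Tyms, thymidylate synthase, measured 10.37, 9.98, 10.77 and 11.29 in WT TAC, against 9.83, 9.64, 9.63 and 9.57 in WT baseline, also without overlap (0.94 ± 0.29, adjusted p by limma 0.0586). A further Tyms probe above background on 16 arrays had a difference of 0.98 (adjusted p by limma 0.0457), and another above background on 3 arrays had one of -0.55 (adjusted p 0.221). Pcna, the sliding clamp of the DNA polymerases, and Rrm1, the large subunit of ribonucleotide reductase, had log2 differences of -0.03 and 0.11 with standard errors of 0.13 and 0.16. Tk1, thymidine kinase, had one of 0.41 ± 0.37.

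The cyclins and kinases of S phase, G2 and mitosis rose in 6 of 8 cases in WT mice. Cdk1, the kinase that drives entry into mitosis, measured 8.23, 7.57, 8.66 and 9.42 in WT TAC ventricles, against 6.26, 6.05, 6.02 and 5.73 in WT baseline ventricles, where no array was well above background. It was at least 5.37-fold higher in WT TAC (adjusted p by limma 0.00593). Aurkb, the kinase of the chromosomal passenger complex, measured 6.05, 4.71, 6.35 and 7.40 in WT TAC, against 4.14, 3.78, 3.98 and 3.81 in WT baseline. It was above background on 1 WT TAC array and on no WT baseline array, so that its fold was only bounded at 1.17 or more, and its adjusted p by limma of 0.0232 came to as much as 0.0671 when any 1 of 6 WT arrays was left out. Plk1, Ccnb2, Ccna2 and Aurka, each above background on all 8 WT arrays, rose by 2.13, 2.02, 1.97 and 1.66 on the log2 scale (adjusted p by limma between 0.00915 and 0.0193). Plk1 is a kinase of mitotic entry and cytokinesis, Ccna2 and Ccnb2 are partners of Cdk1, and Aurka acts at the spindle poles. Aurka lost its call without WT TAC replicate 4, WT baseline replicate 3 or WT baseline replicate 1, with an adjusted p of up to 0.0601. Ccnb1, the main B-type cyclin, had a log2 difference of 2.07 ± 0.77 that did not pass (adjusted p by limma 0.115), with 1 WT baseline array at 6.67 and the others at 5.10 or below. Ttk, a kinase of the spindle checkpoint, was above background on no array of either WT group.

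The spindle checkpoint holds cells before anaphase until all chromosomes are attached, by restraining the anaphase-promoting complex. Of the 5 genes of the checkpoint and the complex, 4 rose in WT mice. Bub1, a checkpoint kinase at the kinetochore, measured 6.87, 6.20, 7.04 and 7.77 in WT TAC ventricles, against 3.93, 4.44, 3.73 and 4.71 in WT baseline ventricles. No WT baseline array was above background, and Bub1 was at least 2.10-fold higher in WT TAC (adjusted p by limma 0.00702). Ube2c, the ubiquitin-conjugating enzyme of the anaphase-promoting complex, measured 9.0, 8.18, 9.54 and 9.96 in WT TAC, against 7.13, 3.70, 7.73 and 7.62 in WT baseline. WT baseline replicate 2, at 3.70, was not above background and enlarged the log2 difference of 2.63 ± 0.73 as well as its error, and the adjusted p by limma was 0.0365. The call was lost when any 1 of 6 WT arrays was left out, with an adjusted p of up to 0.130 without WT TAC replicate 4, and under 5 other settings, the scan day as a block and normexp among them. Bub1b and Cdc20, an inhibitor and an activator of that complex, rose by 2.17 and 1.67 on the log2 scale (adjusted p by limma 0.0163 and 0.0204). Bub1b was above background on 1 WT baseline array. Its value on WT baseline replicate 1, 4.19 against 6.12, 6.01 and 6.23 on the others, enlarged the difference and was not above background. Without WT TAC replicate 4 the adjusted p of Bub1b was 0.0618, and Cdc20 lost its call without that array, WT baseline replicate 3 or WT baseline replicate 1, with an adjusted p of up to 0.0658. Mad2l1, the checkpoint protein that binds Cdc20, stood at 8.50, 8.45, 8.79 and 8.68 in WT TAC, against 8.62, 8.63, 8.60 and 8.50 in WT baseline, a difference of 0.02 ± 0.16 (adjusted p by limma 0.966).

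The centromere and passenger complex genes held the one fall. Cdca3, a trigger of mitotic entry, measured 8.72, 7.63, 9.25 and 9.58 in WT TAC ventricles, against 6.53, 6.14, 6.91 and 6.27 in WT baseline ventricles. It rose by 2.33 ± 0.52 on the log2 scale (adjusted p by limma 0.0141), without overlap of the groups. The call was lost with the scan day as a block, with normexp and with the mean of all probes, and a further Cdca3 probe, above background on 5 arrays, had a difference of 0.99 (adjusted p by limma 0.244). Cenpf, a protein of the nuclear matrix and kinetochore, measured 10.16, 10.92, 10.34 and 10.90 in WT TAC, against 13.05, 12.85, 12.26 and 12.68 in WT baseline. All WT TAC arrays lay below all WT baseline arrays, and the log2 difference was -2.13 ± 0.26 (adjusted p by limma 0.000842). A further Cenpf probe, above background on 5 of the 16 arrays, had a difference of -2.15 (adjusted p by limma 0.0399). Birc5 and Cdca8, subunits of the passenger complex, and Cenpe, a kinetochore motor, rose by 2.13, 1.89 and 1.91 (adjusted p by limma between 0.00282 and 0.0103). Cenpa, the histone H3 variant that marks centromeres, had a log2 difference of 0.44 ± 0.16 in WT mice that did not pass (adjusted p by limma 0.115).

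Both genes often used as general marks of proliferating cells rose in WT mice. Mki67, the Ki-67 antigen that coats mitotic chromosomes, measured 11.73, 10.92, 11.84 and 12.81 in WT TAC ventricles, against 9.88, 9.77, 9.93 and 9.53 in WT baseline ventricles. It rose by 2.05 ± 0.35 on the log2 scale (adjusted p by limma 0.00378), and its further probe by 2.12 (adjusted p 0.00595). Top2a, the topoisomerase that untangles sister DNA, measured 6.91, 5.99, 7.34 and 8.43 in WT TAC, against 5.08, 4.20, 5.04 and 4.79 in WT baseline, where no array was above background. It was at least 2.41-fold higher in WT TAC (adjusted p by limma 0.0304), and the call was lost when any 1 of 7 WT arrays was left out, with an adjusted p of up to 0.104 without WT TAC replicate 4.

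Spindle motors and microtubule proteins rose in 5 of 6 cases in WT mice. Kif11, the motor that pushes the spindle poles apart, measured 6.55, 5.88, 6.20 and 7.30 in WT TAC ventricles, against 3.95, 4.52, 4.55 and 3.63 in WT baseline ventricles. It was at least 1.49-fold higher in WT TAC (adjusted p by limma 0.00345), since no WT baseline array was above background. Tpx2, a spindle assembly factor that activates Aurka, measured 9.02, 7.99, 9.09 and 10.11 in WT TAC, against 6.86, 6.75, 6.90 and 6.76 in WT baseline (2.24 ± 0.40, adjusted p by limma 0.00483). Prc1 and Kif20a of the central spindle and Nusap1 of the spindle rose by 1.90, 1.43 and 1.61 (adjusted p by limma between 0.00904 and 0.0187). Nusap1 lost its call without WT baseline replicate 3 or WT TAC replicate 4, with an adjusted p of up to 0.0600. Kif2c, a microtubule depolymerase, was above background on 2 WT TAC arrays and no WT baseline array, and its signal gave no bound above 1.

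In cytokinesis, Ect2, the exchange factor that turns on RhoA for the contractile ring, measured 8.56, 7.68, 8.14 and 9.24 in WT TAC ventricles, against 6.63, 6.59, 6.40 and 6.83 in WT baseline ventricles. It rose by 1.79 ± 0.30 on the log2 scale (adjusted p by limma 0.00348). Racgap1, its partner at the spindle midzone, measured 8.19, 7.24, 8.08 and 9.01 in WT TAC, against 6.24, 6.31, 6.67 and 6.38 in WT baseline (1.73 ± 0.40, adjusted p by limma 0.0166). Neither gene's groups overlapped, and the adjusted p of Racgap1 was 0.0508 without WT baseline replicate 1. Anln, which scaffolds the contractile ring, had a difference of 1.05 ± 0.40 that did not pass (adjusted p by limma 0.118).

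**Figure D2:**
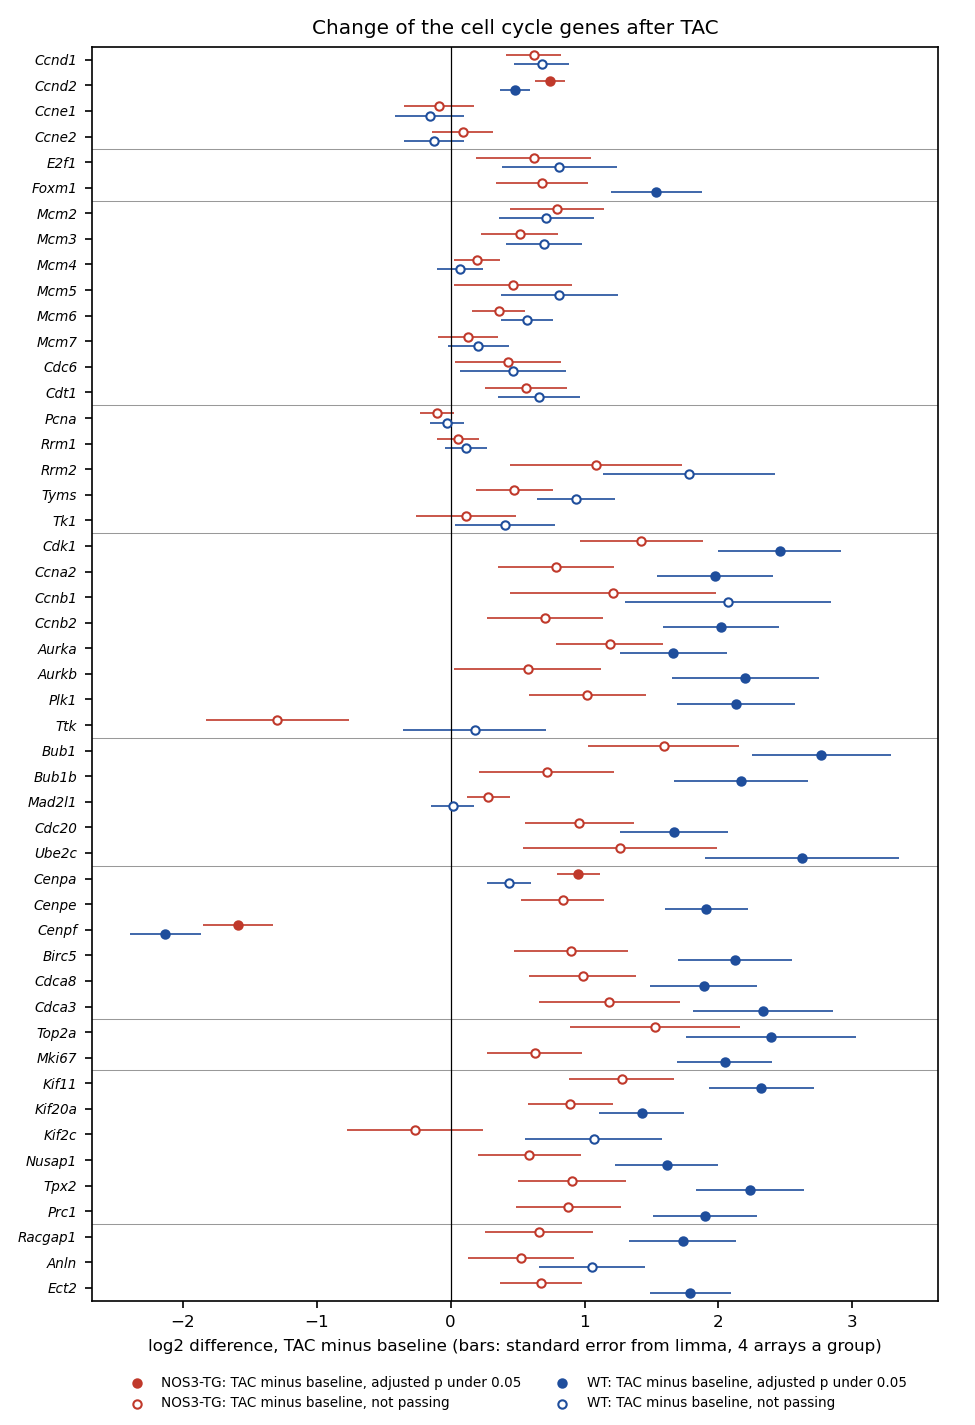
Log2 difference of each gene between TAC and baseline, with its standard error from limma (4 arrays a group), for NOS3-TG mice (red) and WT mice (blue), genes grouped by role down the page. Filled points passed an adjusted p of 0.05: 25 genes to the right of 0 and Cenpf to the left in WT mice, and Ccnd2, Cenpa and Cenpf in NOS3-TG mice.

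In NOS3-TG mice, 2 of the 49 genes rose after TAC, Ccnd2 and Cenpa, and Cenpf fell, where 1.62% of all genes rose and 1.1% fell. The median log2 difference of the 49 genes was 0.67, or 0.62 with the dim genes at their bounds, against -0.15 over all genes, and 44 of the 49 were positive. After quantile normalization that all-gene median was -0.01. All NOS3-TG TAC arrays lay above all NOS3-TG baseline arrays with a value in 4 of the 49 genes (Ccnd2, Kif20a, Bub1 and Cenpa), as in 5.3% of all genes, and Bub1 was above background on none of its 3 baseline arrays with a value. Ccnd2 measured 15.47, 15.27, 15.48 and 15.47 in NOS3-TG TAC ventricles, against 14.69, 14.68, 14.63 and 14.72 in NOS3-TG baseline ventricles (0.74 ± 0.11, adjusted p by limma 0.00433). Its 2 other probes rose by 0.77 and 0.80 (adjusted p by limma 0.00782 and 0.00401). Cenpa measured 11.17, 10.50, 10.54 and 10.51 in NOS3-TG TAC, against 9.97, 9.45, 9.70 and 9.78 in NOS3-TG baseline (0.95 ± 0.16, adjusted p by limma 0.00929). Cenpf measured 10.38, 10.15, 10.08 and 9.68 in NOS3-TG TAC, against 11.84, 11.04, 12.08 and 11.68 in NOS3-TG baseline (-1.59 ± 0.26, adjusted p by limma 0.00784). The further Cenpf probe had a difference of -0.15 in NOS3-TG mice (adjusted p by limma 0.901). With only the compared groups in the fit, none of the 3 passed. Without the 3 arrays farthest from the median share of probes above background, Cenpf alone passed, and without WT TAC replicate 4, which enters the shared estimate of the spread, 6 of the 49 genes passed.

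The levels of the mitotic genes varied widely between the NOS3-TG TAC arrays. Cdk1 measured 9.63, 6.99, 8.55 and 7.04 in NOS3-TG TAC ventricles, against 7.02, 6.59, 6.82 and 6.08 in NOS3-TG baseline ventricles. Mki67 measured 11.49, 9.99, 11.59 and 10.45 in NOS3-TG TAC, against 10.59, 10.13, 10.31 and 9.98 in NOS3-TG baseline. Replicates 1 and 3, the males, were high in both genes, and replicates 2 and 4, the females, lay close to or within the baseline range. Bub1 measured 7.72, 5.83, 7.18 and 5.72 in NOS3-TG TAC, against 5.61, 4.07 and 5.47 on the 3 NOS3-TG baseline arrays with a value, since replicate 2 had an outlier spot. It was at least 1.18-fold higher after TAC, and the adjusted p by limma was 0.180. Rrm2 measured 10.34, 6.28, 9.11 and 7.26 in NOS3-TG TAC, against 7.29, 6.99, 7.28 and 7.09 in NOS3-TG baseline, so that its NOS3-TG TAC group held values both above and below the whole baseline range. It was above background on 3 of the 4 arrays in each of these groups. The SD of a gene between the 4 arrays of a group had a median over the 49 genes of 0.83 in NOS3-TG TAC, 0.66 in WT TAC, 0.22 in NOS3-TG baseline and 0.17 in WT baseline. Over all genes these medians were 0.40, 0.18, 0.40 and 0.17. Among the 30 of the 49 genes above background on all 16 arrays, the same medians were 0.64, 0.63, 0.20 and 0.14, against 0.17, 0.17, 0.14 and 0.13 over the 11998 genes above background on all 16 arrays.

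The spread within a group was shared among the genes. The median of the 49 genes on an array, relative to WT baseline, was 1.72, 0.10, 1.33 and 0.42 on NOS3-TG TAC replicates 1, 2, 3 and 4, and 1.38, 0.69, 1.53 and 2.22 on WT TAC replicates 1, 2, 3 and 4. At baseline it was 0.60, 0.20, 0.20 and 0.13 on the NOS3-TG arrays and between -0.02 and 0.04 on the WT arrays. NOS3-TG TAC replicate 1 was the highest of its group in 43 of the 49 genes, as in 15.7% of all genes, and replicate 2 was the lowest in 41, as in 21.9% of all genes. WT TAC replicate 4 was the highest of its group in 43 of the 49 genes, as in 40.7% of all genes, and replicate 2 was the lowest in 35, as in 35.4% of all genes.

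**Figure D3:**
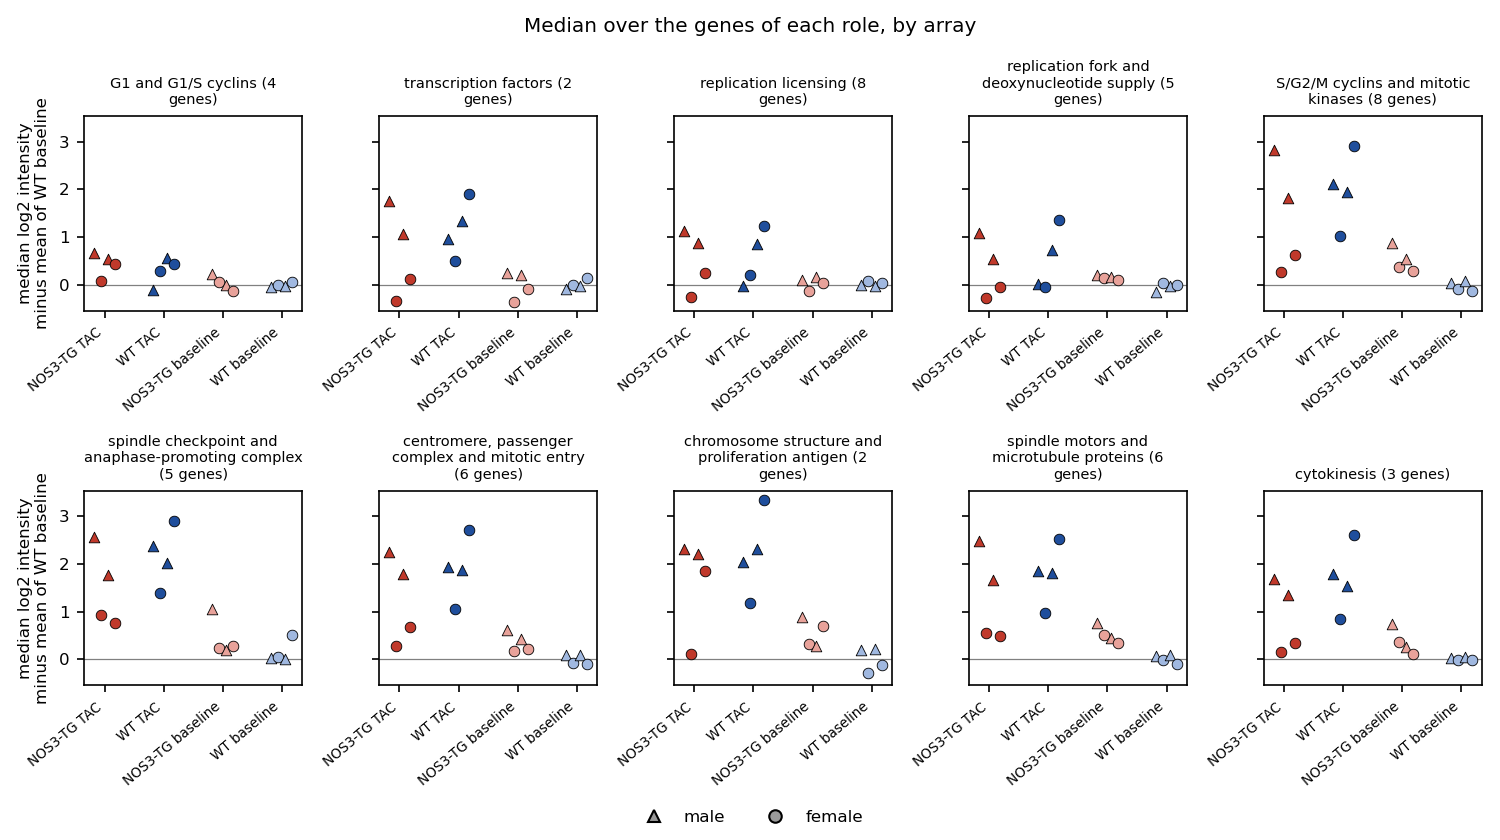
Median over the genes of each role on each array, as log2 intensity minus the mean of the WT baseline arrays, with triangles for males and circles for females. In the mitotic roles the WT TAC arrays lie between 0.84 and 3.34 and the female NOS3-TG TAC arrays mostly below 1, while the licensing and fork roles reach 1.34 at most.

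**Figure D4:**
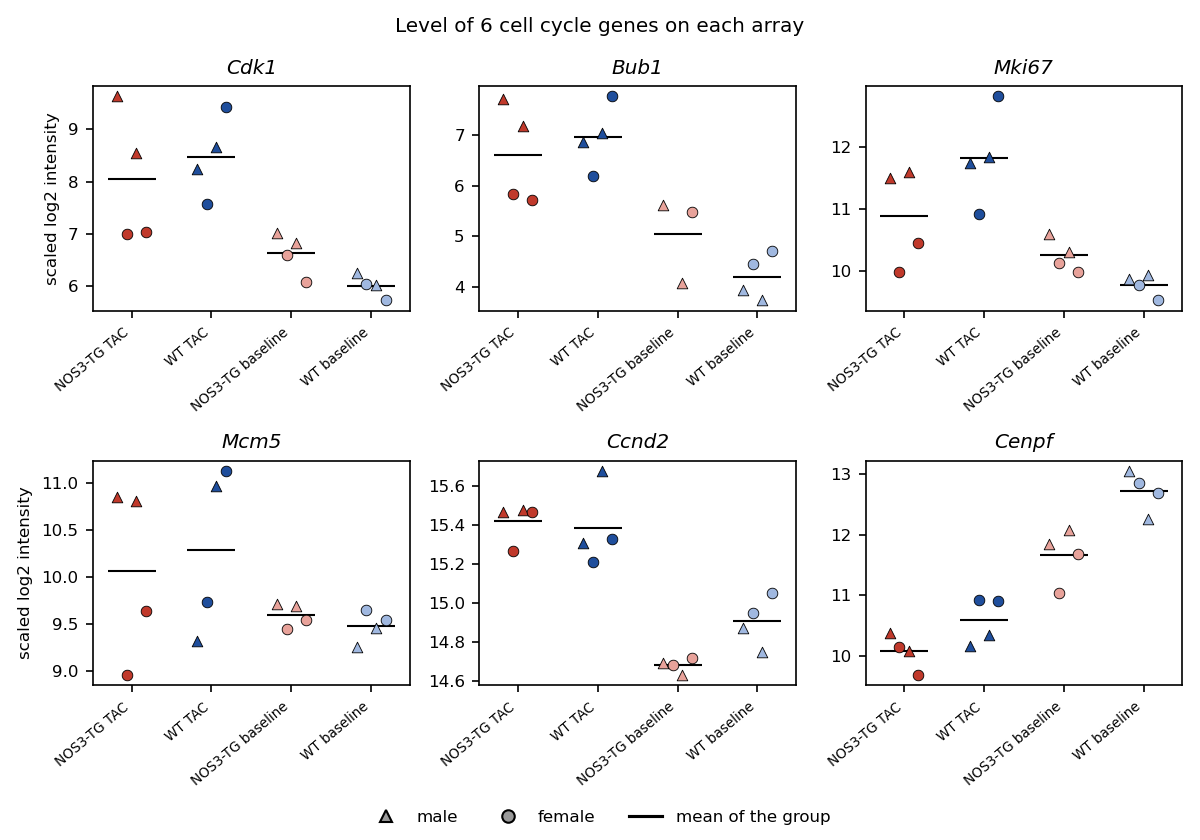
Scaled log2 intensity of 6 genes on each array, with triangles for males, circles for females and a bar at the mean of each group. Cdk1, Bub1 and Mki67 are high on the WT TAC and male NOS3-TG TAC arrays, Ccnd2 is higher on all TAC arrays than on the baseline arrays of the same genotype, and Cenpf is lower.

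NOS3-TG and WT ventricles did not differ detectably in any of the 49 genes after TAC. None of the 49 passed by limma, where 0.0217% of all genes did, and 4 of the 49 had an unadjusted p under 0.05. The median log2 difference, NOS3-TG minus WT, was -0.38, with 6 of the 49 genes positive, against -0.04 over all genes. Mki67 measured 10.88 ± 0.79 in NOS3-TG TAC and 11.82 ± 0.78 in WT TAC (SD, n = 4 each), a log2 difference of -0.94 ± 0.35 (SE) with an adjusted p by limma of 0.673. Foxm1 measured 7.58 ± 0.83 in NOS3-TG TAC and 8.37 ± 0.62 in WT TAC (SD, n = 4 each), a difference of -0.79 ± 0.34 (SE) with an adjusted p by limma of 0.755. None of the 49 genes had all NOS3-TG TAC arrays below all WT TAC arrays, as 1.12% of all genes did. The 2 TAC slides differed: on slide 2 the median of NOS3-TG minus WT was 0.13, with 29 of the 49 genes positive, and on slide 3 it was -0.94, with 1 of 49 positive. On every slide NOS3-TG and WT mice lay at different positions, so genotype and position cannot be told apart in any genotype comparison here.

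At baseline, none of the 49 genes passed between NOS3-TG and WT, where 0.108% of all genes did, and 2 had an unadjusted p under 0.05. The median log2 difference was 0.23, against 0.05 over all genes, and 39 of the 49 were positive. All NOS3-TG arrays lay above all WT arrays in 9 of the 49 genes (Aurkb, Ccna2, Plk1, Ect2, Birc5, Ccnb2, Tpx2, Cdca8 and Mki67), as in 3.94% of all genes. Of these 9, Aurkb was above background on no baseline array of either genotype. All NOS3-TG arrays lay below all WT arrays in 3 of the 49 genes (Ccnd2, Cenpa and Cenpf), as in 3.61% of all genes. Birc5, a passenger complex subunit and inhibitor of apoptosis, measured 9.67, 9.62, 9.47 and 9.22 in NOS3-TG baseline ventricles, against 8.98, 8.77, 8.98 and 8.71 in WT baseline ventricles (0.63 ± 0.43, adjusted p by limma 0.664). Cenpf measured 11.66 ± 0.45 in NOS3-TG baseline and 12.71 ± 0.34 in WT baseline (SD, n = 4 each), and all its NOS3-TG arrays lay below all WT arrays (-1.05 ± 0.26, adjusted p by limma 0.248). Cenpa, at 9.73 ± 0.22 in NOS3-TG baseline and 10.38 ± 0.06 in WT baseline (SD, n = 4 each), also lay lower on all NOS3-TG arrays (-0.66 ± 0.16, adjusted p by limma 0.243). With array weights, 2 of the 49 genes passed, both lower in NOS3-TG. The 10 macrophage and monocyte markers summed to between 102861 and 123011 intensity units on the NOS3-TG baseline arrays. The sums were 72396 to 91571 on the WT baseline arrays. Their median log2 difference was 0.64, with 10 of 10 positive, and none passed. The medians were 0.45 over T and natural killer cell, 0.18 over B cell, 0.16 over granulocyte and mast cell and 0.07 over fibroblast markers. They were -0.13 over mesothelial and epicardial, -0.14 over endothelial, -0.15 over cardiomyocyte, -0.21 over red cell and -0.22 over smooth muscle and pericyte markers. None of these passed, and the part of these cell types in the differences was not tested.

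The TAC effect itself did not differ detectably between the genotypes in any of the 49 genes. By limma none passed in the test of the difference, NOS3-TG minus WT, where 0.0% of all genes did, and 5 of the 49 had an unadjusted p under 0.05. The median of the difference was -0.71, with 8 of the 49 genes positive, against -0.06 over all genes. In the 30 mitotic genes the median was -1.07, and in the 19 genes of G1 and replication -0.08, with standard errors of a single gene near 0.56. Bub1b, above background on 1 WT baseline array, had a value of -1.45 ± 0.71. Below it lay Aurkb and Ttk, both above background on no WT baseline array. Cenpa and Cenpf had the highest values, 0.52 ± 0.23 and 0.54 ± 0.37 (adjusted p by limma 0.692 for each). The genotype differences at baseline (median 0.23) and after TAC (median -0.38) both enter this difference, and none of the 49 genes passed in either.

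Males and females did not differ detectably over all groups. None of the 49 genes passed by limma, where 0.116% of all genes did, 46 of the 49 had a positive difference, male minus female, and the median was 0.34, against 0.00 over all genes. Cdca3 had a difference of 1.08 ± 0.37 (adjusted p by limma 0.370). The TAC effect of males minus that of females had a median of 0.41 over the 49 genes, against 0.14 over all genes, and none of the 49 passed, as 0.0% of all genes did, with 2 of the 49 at an unadjusted p under 0.05. Male and female mice of a genotype always lay at different positions of the slide, so sex and position cannot be told apart.

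After the values were seen, males and females were also compared within the TAC groups. In NOS3-TG mice after TAC all 49 genes were higher in the 2 males than in the 2 females, with a median log2 difference of 1.29 against 0.08 over all genes, and in 46 of the 49 both males lay above both females, as in 31.7% of all genes. None of the 49 passed by limma, where 0.0145% of all genes did, although 31 of the 49 and 6703 of the 27670 genes had an unadjusted p under 0.05. Cdca3 measured 10.32 and 9.13 in the NOS3-TG TAC males, against 6.71 and 7.18 in the NOS3-TG TAC females (2.78 ± 0.56, adjusted p by limma 0.164). Without NOS3-TG TAC replicate 2, 1 of the 49 genes passed. Rrm2, whose values stand above, differed by 2.95 ± 0.63 (adjusted p by limma 0.164). Ccnb1 measured 8.31 and 6.56 in the NOS3-TG TAC males, against 4.43 and 4.47 in the NOS3-TG TAC females. It was above background on 2 of these arrays, at 8.31 in a male and 4.47 in a female. The dimmest signals well above background were 6.92 on replicate 3 and 5.86 on replicate 2, above the Ccnb1 values there. The male minus female median was 1.63 on slide 2, with 49 of 49 genes positive, and 0.94 on slide 3, with 47 of 49 positive. On slide 3 the male array (replicate 3) had 46.2% of probes above background and the female array (replicate 4) 68.0%. Their lowest signals were 4.59 and 2.01. A dim gene such as Ttk, at 4.67 and 2.10 and above background on neither, therefore cannot be compared between them. Of the 49 genes, 39 were above background on all 4 NOS3-TG TAC arrays.

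In WT mice after TAC the 2 sexes overlapped in most of the 49 genes. The median log2 difference, male minus female, was -0.07, with 19 of the 49 genes positive, none passed, where 0.0181% of all genes did, and both males lay above both females in none of the 49 genes, as in 12.2% of all genes. Both males lay below both females in 2 of the 49 genes (Cenpf and Ccne2), as in 12.1% of all genes. The median was 0.50 on slide 2 and -0.63 on slide 3, and it was -0.80 without WT TAC replicate 2 and 0.67 without WT TAC replicate 4. Mki67 measured 11.73 and 11.84 in the WT TAC males, against 10.92 and 12.81 in the WT TAC females, which enclosed the males. The sex difference after TAC in NOS3-TG minus that in WT had a median of 1.41 over the 49 genes, with 48 positive and 22 at an unadjusted p under 0.05, but none passed by limma, as 0.0% of all genes did. Without WT TAC replicate 2, 3 of the 49 passed, and without WT TAC replicate 4 the median was 0.67.

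Outside the 49, 132 other genes of the cell cycle were measured, from lists of the same pathway. In the list of 55 further mitosis and chromosome segregation genes, 19 rose after TAC in WT mice and none fell. Over all genes, 3.99% rose and 6.42% fell. The median log2 difference of the 55 was 1.07. Pbk, a mitotic kinase, was at least 5.67-fold higher in WT TAC (adjusted p by limma 0.00761), and Ckap2l, Ckap2 and Aspm, proteins of the spindle, were at least 2.29-fold, 2.73-fold and 1.23-fold higher, each of the 4 being above background on no WT baseline array (adjusted p by limma between 0.00566 and 0.0145). In the list of 42 further genes of replication origins and forks, 2 rose and 4 fell in WT TAC, beside 3.99% of all genes that rose and 6.42% that fell. Uhrf1, which links DNA methylation to replication, rose by 1.52, Chaf1a, a subunit of the histone chaperone at the fork, rose by 0.87, and Dut, which breaks down dUTP, and Rpa1, a subunit of the single-strand binding protein, fell by 0.66 and 0.55 on the log2 scale (adjusted p by limma between 0.00469 and 0.0443). Of 17 further G1 kinases, cyclins and E2F factors, E2f7, a repressor of E2F targets, and Cdk6 rose by 0.94 and 0.67, and Cdk2 and E2f5 fell by 0.69 and 0.63 (adjusted p by limma between 0.0139 and 0.0361). Of 10 inhibitors of the kinases and pocket proteins, Cdkn1a, the p53-induced inhibitor p21, rose by 1.76 ± 0.39 and Cdkn1c, the inhibitor p57, fell by 0.63 ± 0.18 on the log2 scale in WT TAC (adjusted p by limma 0.0131 and 0.0393). None of 8 checkpoint kinases and CDC25 phosphatases passed. In NOS3-TG mice 3 of the 132 passed after TAC, beside 1.62% of all genes that rose and 1.1% that fell: E2f3, an activator, and Smc4, a condensin subunit, rose by 0.75 and 0.54, and Cdk2 fell by 0.69 (adjusted p by limma between 0.0211 and 0.0378).

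Markers of other cell types were measured beside these genes. Over all genes, 3.99% rose and 6.42% fell after TAC in WT mice, and 1.62% rose and 1.1% fell in NOS3-TG mice. In WT mice after TAC, 5 of 10 macrophage and monocyte markers rose and none fell, and they summed to between 98497 and 127035 intensity units in WT TAC ventricles, against 72396 to 91571 in WT baseline ventricles. Of 10 fibroblast markers 4 rose, with sums of 233644 to 353620 in WT TAC, against 189046 to 301139 in WT baseline, so that the fibroblast sums overlapped. Of 10 cardiomyocyte markers 1 rose, 2 had a positive log2 difference, and the median was -0.25. In the other lists, 1 of 10 endothelial markers, 2 of 10 smooth muscle and pericyte markers and 1 of 7 mesothelial and epicardial markers rose, and 2 smooth muscle and pericyte markers, 1 of 9 T and natural killer cell markers and 1 of 6 red cell markers fell. In NOS3-TG mice after TAC none of the 10 macrophage markers and 1 of the 10 fibroblast markers rose, with macrophage sums of 118957 to 138653 in NOS3-TG TAC, against 102861 to 123011 in NOS3-TG baseline. The median log2 difference of these macrophage markers was 0.001, with 5 of the 10 positive. Between the male and female NOS3-TG TAC mice, all 10 macrophage and all 10 fibroblast markers were higher in the males, with median log2 differences of 0.46 and 0.31, and all 10 cardiomyocyte markers were lower, with a median of -0.30, and none passed. The same medians were 0.79 over the mesothelial and epicardial markers (6 of 7 positive), 0.74 over the granulocyte and mast cell markers (7 of 7), 0.59 over the B cell markers (5 of 8), 0.19 over the red cell markers (4 of 6), 0.18 over the T and natural killer cell markers (7 of 9), 0.10 over the endothelial markers (7 of 10) and -0.01 over the smooth muscle and pericyte markers (5 of 10), and none of these passed. The T cell marker Gzma, the B cell markers Pax5, Blk and Fcer2a and the mesothelial markers Krt19 and Lrrn4 were above background on no array. The part of these cell types in the results was not tested.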

How the data were processed

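Left ventricular mRNA was hybridised to 16 one-colour Agilent arrays. The deposited spot intensity is the processed signal, already background-subtracted, per the file headers. Agilent Feature Extraction 9.5.1.1 made it, according to the submitters' processing notes. The authors also deposited log2 values for part of the probes, with a normalization not given in the sources used here, used as an alternative. The genome build of the probes' coordinates was not given either.

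Control and outlier spots were left out, 41174 probes were named (22951 by accession, 9768 by symbol or synonym in the RefSeq gene list of GRCm38.p6), and each array was scaled to its 75th percentile. Where a gene had several probes (25 of the 49), the one with the highest mean stood for it, without a filter. Limma 3.58.1 in R 4.3.3 (data.table, version 1.17.8) fitted 4 group means and sex over all 16 arrays. The sex comparisons that involve TAC came from a second fit, of 1 mean for each combination of group and sex. A gene passed at a two-sided Benjamini-Hochberg adjusted p under 0.05 over all genes. The steps were tested on simulated data. A lower bound of a fold sets each array of the dim group at its own signal or, if that is higher, at the dimmest signal still well above background. Per role, the 2 genes with the largest fitted log2 difference in WT mice, dim genes included, are given on every array. Pandas 2.3.3 and matplotlib 3.10.9 ran in Python 3.11.15.

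The genes, lists, tests and alternatives were chosen with earlier results of these data known. No result here is therefore independent support for those.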

Additional observations from a re-analysis of the deposited data

Results flagged for a closer look

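In 7 of 195 sets of 4 arrays (3.59%), 1 array lay far from the other 3 of its group by Dixon's test, where chance alone gives about 1 in 20. Ccnd2 was low on NOS3-TG TAC replicate 2, at 15.27, and Cenpa was high on NOS3-TG TAC replicate 1, at 11.17. Top2a was low on NOS3-TG TAC replicate 2, at 4.77, and Anln was high on NOS3-TG baseline replicate 1, at 7.03. Ttk was high on WT TAC replicate 4, at 4.60. Bub1b was low on WT baseline replicate 1, at 4.19, and Ube2c was low on WT baseline replicate 2, at 3.70. The values of Ttk, Bub1b, Ube2c and Top2a were not well above background on those arrays.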

How the results depend on the processing

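No value that passed reversed its sign under any alternative run. No paired analysis was possible because the labels give no replicate numbers that pair the animals, so slide was used as a block instead. As a random block it left 26 calls in WT and 3 in NOS3-TG mice after TAC, and as a fixed or random block it gave none in the genotype and sex comparisons. Baseline and TAC lay on different slides, so no block can separate slide from TAC. The within-slide correlation was -0.025, so the random block could hardly change the fit. In WT mice 26 of the 49 genes passed after TAC, 17 with normexp background correction, 12 with scan day as a block, and between 19 and 29 when 1 array was left out. Of the 26, 17 kept their call whichever array was left out and 9 under all other settings. Their median over the 49 genes, 1.54, was 0.69 with normexp, 1.03 in the authors' values (40 genes), 0.98 with the mean of all probes and 0.71 in the 30 genes above background on all arrays. In NOS3-TG mice 3 passed, 5 of those 30 genes, 1 with the mean of all probes, 0 with the compared groups only, 1 without the 3 arrays farthest in share above background, and between 3 and 6 when 1 array was left out, 6 of them without WT TAC replicate 4. At baseline 2 genes passed between the genotypes with array weights. Between the sexes after TAC, 1 gene passed in NOS3-TG without NOS3-TG TAC replicate 2. In WT the median ranged between -0.80 and 0.67 with 1 array left out. For the difference of the sex effects up to 3 genes passed and the median ranged between 0.67 and 2.09. Depth is signal over background: 19 of the 49 genes were not above it on every array.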
